A study of Mus musculus with 6 samples.

Results

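Bipolar cell identity genes were examined in the mouse retina, as 9 genes that mark bipolar cells in general or single types of them and that lie outside the mGluR6 signalling cascade of ON bipolar cells. The 9 are Vsx1, Lhx4, Isl1, Grik1, Cabp5, Scgn, Car8, Rgs16 and Igfn1. They were chosen by name, with earlier results of these data known. Each was matched exactly to the gene symbols of the deposited tables, where all 9 of 9 were found among 24346 symbols. Whole retina was compared between 2 genotypes, with 3 libraries of Unc119+/+ (wild type) and 3 of Unc119-/- (knockout of Unc119, which encodes a carrier of lipid-modified photoreceptor proteins). Strain, age, the cells in which the gene was lost and the way the allele was made are not given in sources used here. The labels number the libraries of a genotype 1 to 3 without stating whether they are separate animals, so p-values measure the spread between these libraries, which may be technical in part.

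Bipolar cells carry the signal of rods and cones to amacrine and ganglion cells. Rod bipolar cells and ON cone bipolar cells respond to light onset through the receptor mGluR6, whereas OFF cone bipolar cells receive glutamate through AMPA and kainate receptors and respond to light offset. Homeodomain transcription factors set the types apart, and calcium-binding proteins are common markers of them. In a whole retina, fewer cells of a type and less RNA per cell cannot be told apart.

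The values are FPKM, a unit that divides fragments by transcript length, so levels can be compared between genes; how libraries were scaled to each other is not stated. How many fragments lie behind a value is unknown. Relative depth, read from the spacing of values at or below 0.3 FPKM, ran from 0.763 to 1 in wild type and from 0.931 to 0.964 in the knockout, with wild-type replicate 2 set to 1. Unc119 measured 1191, 1187 and 1206 FPKM in the wild-type libraries and 510, 460 and 449 FPKM in the knockout libraries (log2 change −1.34, limma adjusted p = 6.606e-05), so the targeted gene was lower in the libraries labelled knockout, while transcript from it was still measured. Judged by Xist and genes of the Y chromosome, the male libraries were replicates 1 and 2 of wild type and replicate 1 of the knockout. Knockout replicate 3 stood apart by its lens RNA: 10 lens genes made up 2.58% of its FPKM sum, against 0.00511% to 0.163% in the other libraries.

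None of the 9 genes passed the test between genotypes. Igfn1 was the member furthest from the wild-type level, at 66.3% of its mean, and Isl1 was the highest, at 107.5%. The test was limma on log2(FPKM + 1), a scale that understates changes of low genes, with Benjamini-Hochberg adjustment over 14176 genes with a mean of at least 0.5 FPKM. All 9 members passed that filter in both genotypes, since their lowest single value was 4.77 FPKM. At an adjusted p under 0.05 by limma, 0 of the 9 were called, beside 0.233% of all genes tested (0.205% higher and 0.0282% lower in the knockout). At an unadjusted p under 0.05 it was 1 of the 9, Igfn1, beside 9.0% of all genes. For 2 of the 9 the ranges of both genotypes were separate, Isl1 (higher in the knockout) and Igfn1 (lower), beside 15.9% of all genes (7.83% higher and 8.04% lower). The median log2 change of the 9 was −0.04, beside 0.00 (−0.0017) over all genes tested, with 7 members lower and 2 higher.

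The order of the 9 levels was nearly the same in both genotypes. In wild type Cabp5 was highest at 80.5 ± 3.88 FPKM (mean ± SD, n = 3, as for all means below), followed by Scgn at 51.6 ± 2.02, Grik1 at 28.3 ± 0.810, Isl1 at 26.0 ± 1.31, Rgs16 at 22.8 ± 1.10, Car8 at 14.5 ± 1.05, Vsx1 at 9.97 ± 1.08, Igfn1 at 7.57 ± 0.677 and Lhx4 at 7.38 ± 1.43. Each neighbour in that order was separated by the ranges of the 3 libraries except Igfn1 and Lhx4, whose ranges overlapped. In the knockout the ranges of Isl1 and Grik1 overlapped instead, and Lhx4 (lowest library 7.28 FPKM) lay above Igfn1 (highest library 5.33 FPKM) in each library.

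**Figure D1:**
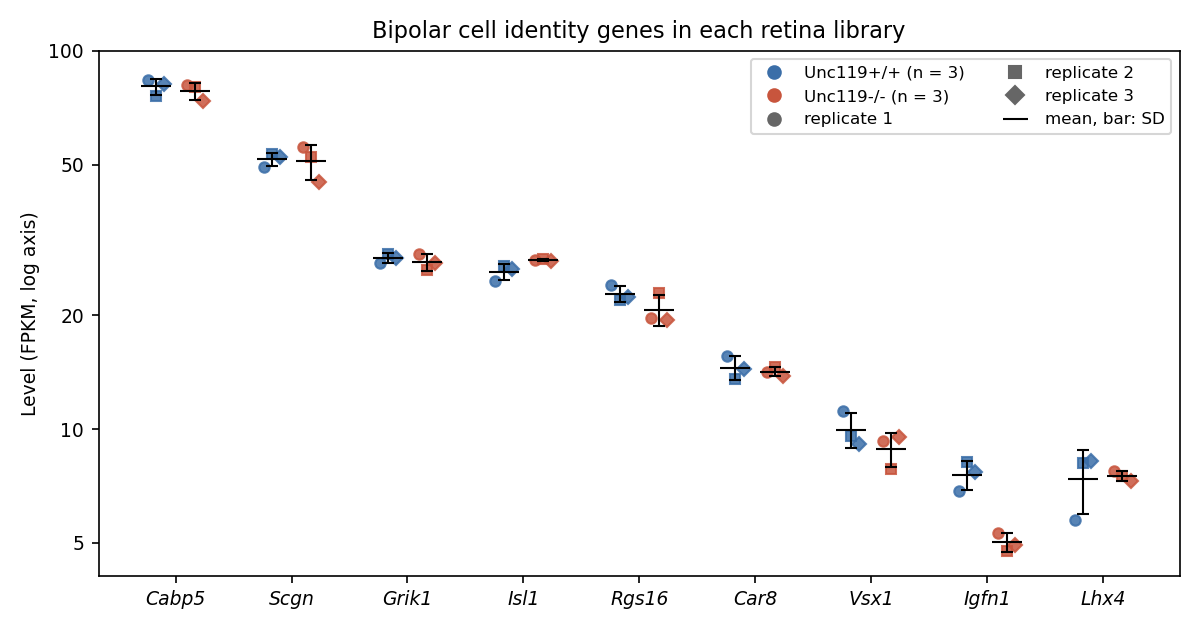
Level of each of the 9 genes in FPKM (log axis) in the 3 Unc119+/+ libraries (blue) and the 3 Unc119-/- libraries (red), with the mean and SD of each genotype and the symbol showing the replicate. Igfn1 runs from 6.84 to 8.18 FPKM in wild-type retina and from 4.77 to 5.33 FPKM in knockout retina, and the ranges of the other genes overlap between genotypes except for Isl1.

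Positions are given on mm10 (GRCm38), from GENCODE M21, and all 9 genes are protein coding. Vsx1 lies on chromosome 2 (150680702 to 150689360, minus strand), Grik1 on chromosome 16 (87895900 to 88290265, minus strand), Cabp5 on chromosome 7 (13398132 to 13408887, plus strand) and Car8 on chromosome 4 (8143362 to 8239041, minus strand). Scgn (23953456 to 23991214) and Isl1 (116298281 to 116309689) lie on the minus strand of chromosome 13. Chromosome 1 holds Igfn1 (135953578 to 136006342, minus strand), Rgs16 (153740349 to 153745468, plus strand) and Lhx4 (155698031 to 155751684, minus strand). No member lies on chromosome 11, which carries Unc119.

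Promoter sequences from RefSeq (build GRCm38.p6, 250 bases before to 50 after the gene start, 300 bases) were matched for 7 of the 9 members; Grik1 and Car8 had no entry. They were searched on both strands for TAATCC, the core recognised by the homeodomain factors OTX2 and CRX, and for TAATTA, a core of many other homeodomain factors. TAATCC was found in 2 of the 7, Cabp5 and Isl1, and in 7.06% of all 32851 promoters in the table. TAATTA was found in none of the 7 and in 5.29% of all promoters. A match is only a run of letters, and no binding was measured. The promoters of both genes with a match are shown with the matches in capitals, and that of Igfn1 because it differed most between genotypes among the 9; they lie at chr7:13397905-13398204 (plus strand), chr13:116309639-116309938 (minus strand) and chr1:136006293-136006592 (minus strand), each written 5′ to 3′ along its gene's strand. In Cabp5 the matches begin 160 and 41 bases before the start, and in Isl1 the match begins 177 bases before it.
Cabp5: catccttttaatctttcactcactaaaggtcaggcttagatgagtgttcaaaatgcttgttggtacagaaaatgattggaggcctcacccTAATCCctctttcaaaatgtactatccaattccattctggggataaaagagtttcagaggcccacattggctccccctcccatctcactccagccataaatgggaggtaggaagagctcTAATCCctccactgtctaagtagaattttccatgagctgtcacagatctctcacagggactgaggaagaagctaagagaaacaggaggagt
Isl1: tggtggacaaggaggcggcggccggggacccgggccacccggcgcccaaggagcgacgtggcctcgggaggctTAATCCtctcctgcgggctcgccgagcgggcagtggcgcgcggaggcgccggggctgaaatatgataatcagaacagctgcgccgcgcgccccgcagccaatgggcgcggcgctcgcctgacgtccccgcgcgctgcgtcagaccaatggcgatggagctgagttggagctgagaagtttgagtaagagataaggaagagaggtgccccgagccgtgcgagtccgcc
Igfn1: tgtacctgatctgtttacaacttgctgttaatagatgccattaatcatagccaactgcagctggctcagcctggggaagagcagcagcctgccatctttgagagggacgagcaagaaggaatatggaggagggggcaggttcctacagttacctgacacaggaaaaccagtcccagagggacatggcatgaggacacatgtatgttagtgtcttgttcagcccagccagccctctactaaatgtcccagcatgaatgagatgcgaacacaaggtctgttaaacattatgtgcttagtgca

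Among the transcription factors, Vsx1 encodes a paired-like homeodomain protein of cone bipolar cells that is needed for their late differentiation. Vsx1 measured 11.2, 9.58 and 9.14 FPKM in wild-type retina (replicates 1, 2 and 3, in that order throughout) and 9.29, 7.82 and 9.51 FPKM in the knockout replicates. Wild-type replicate 1 was its highest library and knockout replicate 2 its lowest, and the genotypes overlapped. The knockout mean was 8.88 ± 0.919 FPKM, 89.0% of wild type, with a log2 change of −0.15 (SE 0.10, 95% interval −0.39 to 0.09, limma adjusted p = 0.690). The log2 change was −0.07 without wild-type replicate 1 and also −0.07 without knockout replicate 2.

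Lhx4 encodes a LIM-homeodomain factor of cone bipolar subsets. Lhx4 measured 5.73, 8.15 and 8.25 FPKM in wild-type retina and 7.75, 7.54 and 7.28 FPKM in knockout retina. Wild-type replicate 1, which was also the shallowest library, was the lowest of the 6, and the 3 knockout values lay between it and the other two. The log2 change was 0.04 (SE 0.13, 95% interval −0.26 to 0.34, limma adjusted p = 0.945), and without wild-type replicate 1 it was −0.11.

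Isl1 encodes a LIM-homeodomain factor of ON bipolar cells, which ganglion cells and cholinergic amacrine cells express as well. Isl1 measured 24.6, 27.04 and 26.5 FPKM in wild-type retina and 27.9, 28.2 and 27.8 FPKM in knockout retina. The lowest knockout library lay above the highest wild-type library by less than the range among wild-type libraries. The knockout mean was 28.0 ± 0.232 FPKM, with a log2 change of 0.10 (SE 0.05, 95% interval −0.02 to 0.23, limma adjusted p = 0.614; exact two-sided permutation p = 0.1, the smallest that 3 libraries against 3 allow). The difference was 0.11 within males and 0.08 within females on the log2 scale, each with 1 library on one side and so without a test. Of the other genes these cells express, the ganglion list (6 genes) had 1 member higher and 5 lower, and its sum was 285 to 320 FPKM in wild-type retina and 281 to 291 FPKM in knockout retina. Chat, of cholinergic amacrine cells, measured 5.75 to 6.97 FPKM in wild-type retina and 4.95 to 5.64 FPKM in knockout retina (limma adjusted p = 0.516), lower without overlap. Their part in the Isl1 value was not tested.

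Grik1 encodes the kainate receptor subunit GluK1, through which OFF cone bipolar cells receive glutamate. Grik1 measured 27.5, 29.1 and 28.4 FPKM in wild-type retina and 29.0, 26.3 and 27.5 FPKM in knockout retina, with knockout values on both sides of the wild-type mean. Its log2 change was −0.04 (SE 0.06, 95% interval −0.17 to 0.09, limma adjusted p = 0.869). The most abundant of the other kainate subunits, Grik5, was close to it in level (25.9 ± 0.976 FPKM in wild-type retina and 26.1 ± 2.102 FPKM in knockout retina, adjusted p = 0.977 by limma), and Grik2, Grik3 and Grik4 had wild-type means of 4.93, 3.36 and 1.17 FPKM.

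The 2 calcium-binding proteins were the most abundant members. Cabp5, a calmodulin-like protein of rod bipolar cells and some cone bipolar types, measured 83.6, 76.1 and 81.8 FPKM in wild-type retina and 81.0, 80.04 and 73.7 FPKM in knockout retina. Only knockout replicate 3 lay below the wild-type range. The log2 change of Cabp5 was −0.04 (SE 0.06, 95% interval −0.17 to 0.09, limma adjusted p = 0.848), and 0.0011 without knockout replicate 3.

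Scgn encodes secretagogin, an EF-hand protein of cone bipolar cells. Scgn measured 49.4, 53.2 and 52.3 FPKM in wild-type retina and 55.6, 52.4 and 45.1 FPKM in knockout retina, so the highest and the lowest of the 6 values were both knockout libraries. Its log2 change was −0.02 (SE 0.08, 95% interval −0.20 to 0.16, limma adjusted p = 0.951), and 0.06 without knockout replicate 3. Scgn shares 9367 bases with the antisense gene Gm11339, and whether fragments were counted by strand is not given in sources used here, so reads of both cannot be told apart.

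Car8 encodes a carbonic anhydrase-related protein without enzyme activity that binds the IP3 receptor ITPR1, and it is used as a bipolar cell marker. Car8 measured 15.6, 13.5 and 14.4 FPKM in wild-type retina and 14.1, 14.6 and 13.8 FPKM in knockout retina, within the wild-type range in each knockout library. The log2 change was −0.03 (SE 0.07, 95% interval −0.19 to 0.13, limma adjusted p = 0.921). On the annotation Car8 shares 460 bases with the pseudogene Gm11799 on its own strand. Itpr1 itself measured 9.15 ± 0.524 FPKM in wild-type retina and 8.68 ± 0.913 FPKM in knockout retina (adjusted p = 0.839 by limma). The active enzyme of the family with the highest level, Car2, measured 274 ± 13.8 FPKM and 265 ± 11.9 FPKM (adjusted p = 0.792 by limma).

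Rgs16 encodes a GTPase-activating protein that shortens signalling by Gi and Gq alpha subunits. Rgs16 measured 24.0, 21.9 and 22.3 FPKM in wild-type retina and 19.7, 22.9 and 19.4 FPKM in knockout retina. Knockout replicates 1 and 3 lay below every wild-type library, and knockout replicate 2 lay within the wild-type range. The log2 change was −0.14 (SE 0.08, 95% interval −0.31 to 0.04, limma adjusted p = 0.637), and −0.21 without knockout replicate 2. Rgs16 shares 1917 bases with the antisense gene Gm28513, with the same limit as for Scgn.

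Igfn1 encodes a protein with immunoglobulin-like and fibronectin type III domains that is best known from skeletal muscle and that marks one type of ON cone bipolar cell. Igfn1 measured 6.84, 8.18 and 7.69 FPKM in wild-type retina and 5.33, 4.77 and 4.95 FPKM in the knockout replicates. Each knockout library was below each wild-type library, at 70.4%, 63.1% and 65.4% of the wild-type mean. The means were 7.57 ± 0.677 and 5.02 ± 0.283 FPKM, and the log2 change was −0.51 (SE 0.09, 95% interval −0.72 to −0.30). The unadjusted limma p was 0.000598, rank 58 of 14176 genes, and the adjusted p was 0.146, so Igfn1 did not pass. Genes whose log2 change was lower still numbered 73. The exact two-sided permutation test gave p = 0.1, its smallest possible value.

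The Igfn1 difference kept its direction in each subset of the libraries tried. On the log2 scale it was −0.42 within males (6.84 and 8.18 against 5.33 FPKM) and −0.57 within females (7.69 against 4.77 and 4.95 FPKM), with 1 library on one side each time and so without a test. When single libraries were left out it ran from −0.57 to −0.46, with adjusted p from 0.215 to 0.449 by limma. With the lens level as a term in the fit, the log2 change was −0.51 (limma adjusted p = 0.584).

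Ratios within a library do not depend on how libraries were scaled. Igfn1 made up 2.75%, 3.31% and 3.06% of the summed FPKM of the 9 genes in the wild-type libraries, and 2.13%, 1.95% and 2.16% in the knockout libraries (exact two-sided permutation p = 0.1). Isl1 made up 9.89%, 11.0% and 10.6% in wild type and 11.2%, 11.5% and 12.1% in the knockout (exact permutation p = 0.1). The shares of the other seven genes overlapped between genotypes; that of Cabp5 was 32.4% ± 1.42 in wild type and 32.4% ± 0.259 in the knockout (SD, n = 3 each).

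For the 8 members other than Igfn1, the 95% intervals of the knockout level on the scale of FPKM + 1 ran from 76.3% of wild type at the lowest bound (Vsx1) to 126% at the highest (Lhx4), and each included 100%. The interval of Grik1 ran from 89.2% to 106.7% and that of Cabp5 from 88.9% to 106.3%. The interval of Igfn1 ran from 60.7% to 81.5%. These intervals hold for 1 gene at a time and are not adjusted over the 14176 genes tested. After that adjustment Igfn1 did not pass (limma adjusted p = 0.146). The intervals show how large a change these 6 libraries leave room for, and a p above the threshold does not show that the levels were equal.

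Lad1 and Tnnt2, a pair of genes called higher in the knockout, lie beside Igfn1 on chromosome 1. The gap between Igfn1 and Tnnt2 (cardiac troponin T) is 101317 bases and that to Lad1 (ladinin, a basement membrane protein) 120235 bases. Tnnt2 measured 0.453 ± 0.268 FPKM in wild-type retina and 2.68 ± 0.266 FPKM in knockout retina, and Lad1 0.415 ± 0.0725 and 2.92 ± 0.584 FPKM, with limma adjusted p of 0.0303 and 0.0101. Both wild-type means were below the filter of 0.5 FPKM, so both genes were tested only through their higher knockout values. How many fragments lie behind values this low is unknown. Genes called higher made up 0.205% of all genes tested. Of the 10 tested genes within 300 kb of Igfn1, the other 8 were not called, with log2 changes from −0.31 to 0.26 and limma adjusted p of 0.675 or more, and their genotypes overlapped. Pkp1, which lies between Tnnt2 and Igfn1, had a log2 change of −0.13, and Tmem9, whose start lies 1808 bases from that of Igfn1 on the opposite strand, had −0.02. Whether the values of Igfn1, Lad1 and Tnnt2 are linked was not tested.

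**Figure D2:**
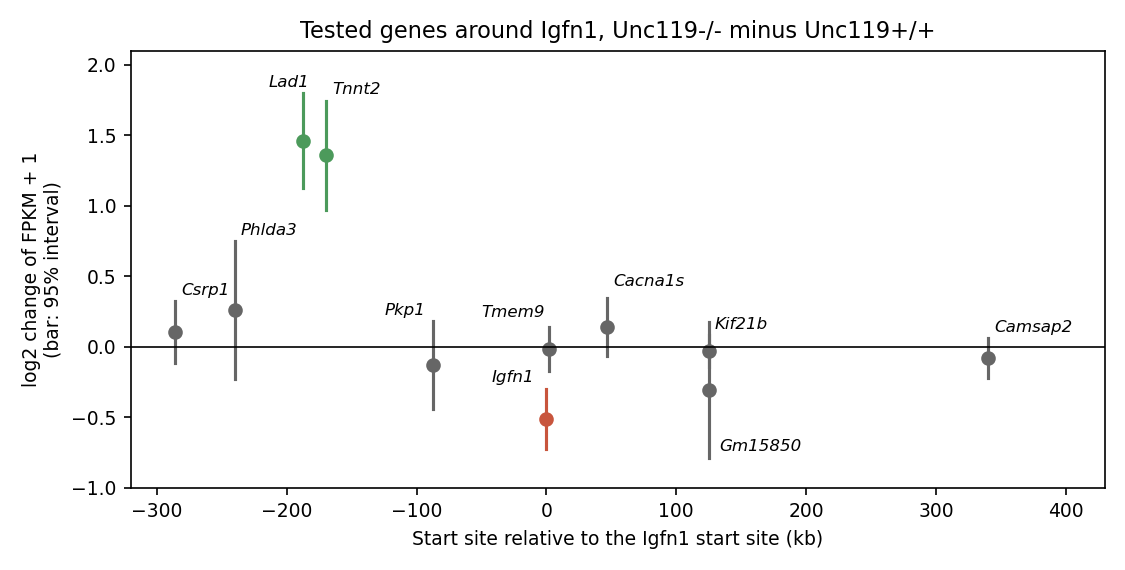
Log2 change of FPKM + 1 (knockout minus wild type, bar: 95% interval) for Igfn1 (red) and the 10 tested genes within 300 kb of it, against the distance of each start site from that of Igfn1 in kb; the window is measured to the nearest end of a gene. Lad1 and Tnnt2 (green) lie above 0 at 1.46 and 1.36, Igfn1 lies at −0.51, and the intervals of the other 8 genes include 0.

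None of the other bipolar genes passed the test either. They were taken as 27 genes in 4 lists, 6 of all or most bipolar cells, 6 of rod bipolar cells, 7 of ON cone types and 8 of OFF cone types. All 27 were tested and none was at 0 in any library. By limma 0 of the 27 were called after adjustment over all genes, and 0 also had an unadjusted p under 0.05, beside 0.233% and 9.0% of all genes. Of the 27, 8 were higher and 19 lower, with a median log2 change of −0.03. Genotypes did not overlap for 2 of them, Sebox and Pcdh10, both lower, beside 8.04% of all genes lower without overlap.

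Of the pan-bipolar list, Otx2, a homeodomain factor of photoreceptors and bipolar cells, measured 96.9 ± 2.71 FPKM in wild-type retina and 96.6 ± 3.70 FPKM in knockout retina. Of the rod bipolar list, Pcp2 measured 195 ± 8.004 and 211 ± 12.9 FPKM, and Prkca, protein kinase C alpha, 61.1 ± 4.18 and 58.0 ± 1.42 FPKM. The genotypes overlapped for these 3 genes. Sebox, a homeobox gene of the rod bipolar list, measured 58.1, 55.2 and 55.5 FPKM in wild-type retina and 54.1, 52.6 and 48.2 FPKM in knockout retina (log2 change −0.12, limma adjusted p = 0.568).

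The lists of cone bipolar types held less abundant genes. Of the ON list, Kcng4, a potassium channel subunit, measured 6.43 ± 0.720 and 6.40 ± 0.355 FPKM, and Cpne9 5.50 ± 0.483 and 5.17 ± 0.232 FPKM. The lowest log2 change of the 27 was that of Htr3a, a serotonin-gated channel on the ON list, at −0.33 (1.66, 2.47 and 2.82 FPKM against 1.57, 1.58 and 1.66 FPKM, limma adjusted p = 0.573). Of the OFF list, the protocadherin gene Pcdh10 measured 13.1, 13.5 and 12.6 FPKM in wild-type retina and 12.2, 11.8 and 12.6 FPKM in knockout retina (log2 change −0.09, adjusted p = 0.687 by limma), and Tacr3, the neurokinin receptor NK3, 9.73 ± 0.911 and 9.55 ± 0.541 FPKM. The highest was Fezf2 on the OFF list, at 0.20 (adjusted p = 0.671 by limma).

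**Figure D3:**
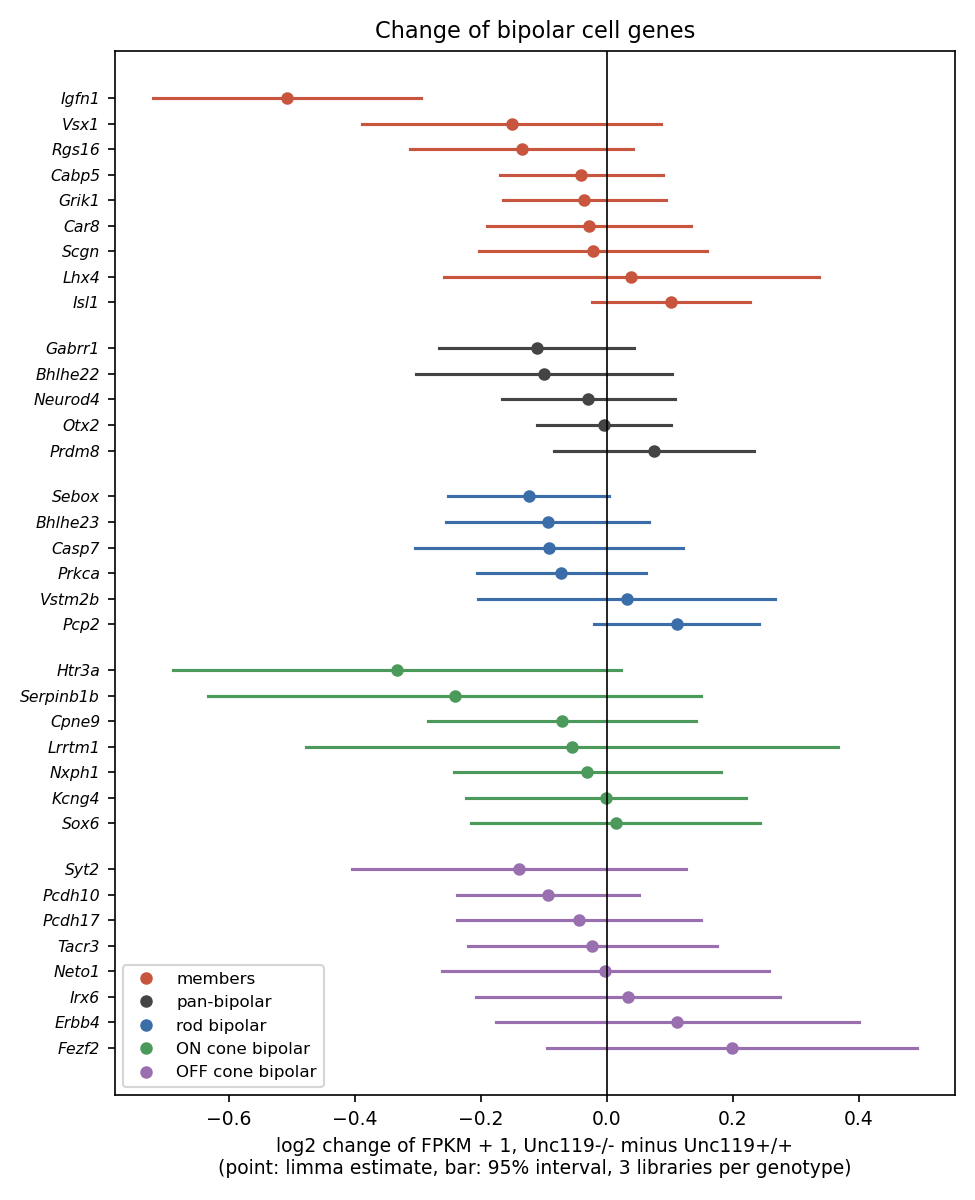
Log2 change of FPKM + 1 (knockout minus wild type) with its 95% interval for the 9 members (red) and other bipolar genes by list. The interval of Igfn1 is the only one drawn that lies wholly on one side of 0. The intervals are not adjusted for the number of genes tested.

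Of the 11 cascade genes only Gnb3, a G protein beta subunit shared with cones, passed the test, at 185 ± 6.40 FPKM in wild-type retina and 303 ± 9.12 FPKM in knockout retina (log2 change 0.71, limma adjusted p = 0.00119), and the most abundant, Gnb5, measured 311 ± 15.3 and 312 ± 12.7 FPKM. Ranges of the genotypes were separate for 4 of the 11, Gnb3 and Rgs11 (higher) and Trpm1 and Gnao1 (lower), beside 15.9% of all genes, and the 1 of 11 called stands beside 0.233%.

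The summed level of the 9 members was 248, 247 and 251 FPKM in the wild-type libraries and 249.7, 245 and 229 FPKM in the knockout replicates. Knockout replicate 3, the library rich in lens RNA, was the lowest, and 3 of the 9 genes (Cabp5, Scgn and Rgs16) had their lowest value there. Another 3 (Vsx1, Grik1 and Igfn1) had theirs in knockout replicate 2, whose lens share was 0.124%. Without knockout replicate 3 the knockout mean of the sum was 247 FPKM, 99.4% of wild type. The 27 other bipolar genes summed to 764 to 778 FPKM in wild-type retina and 752 to 788 FPKM in knockout retina, again with the lowest value in knockout replicate 3. The part of lens RNA in these sums was not tested. The microglia list (8 genes) moved apart from the bipolar lists, at 31.6 to 37.9 FPKM in wild-type retina and 57.4 to 65.4 FPKM in knockout retina. Its members called higher were 2, C1qc and Ctss, beside 0.205% of all genes. Ranges were separate for 6 of the 8, all higher, beside 7.83% of all genes. Csf1r and P2ry12 overlapped between genotypes, at 108.6% and 111.4% of wild type. The mGluR6 cascade summed to between 1099 and 1159.5 FPKM in wild-type retina and between 1188 and 1219.7 FPKM in knockout retina, also without overlap. This higher sum does not describe the cascade as a whole, since 8 of its 11 genes were lower and 3 higher. Gnb3 alone (mean 303 FPKM in the knockout, against 185) differed by more than the whole sum did (mean 1205 against 1120 FPKM). Sums of the cone list (752 to 811 against 697 to 745 FPKM), the horizontal list (132 to 137 against 115 to 130 FPKM) and the amacrine list (264.3 to 273 against 255 to 264.1 FPKM) were lower in the knockout without overlap. No gene of these lists was called, beside 0.233% of all genes. The lower genes numbered 5 of 6 on the cone list, 5 of 5 on the horizontal list and 5 of 8 on the amacrine list. Abundant genes weigh most in a sum: Sept4 alone had a wild-type mean of 107 FPKM, of 135 FPKM for the horizontal list.

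**Figure D4:**
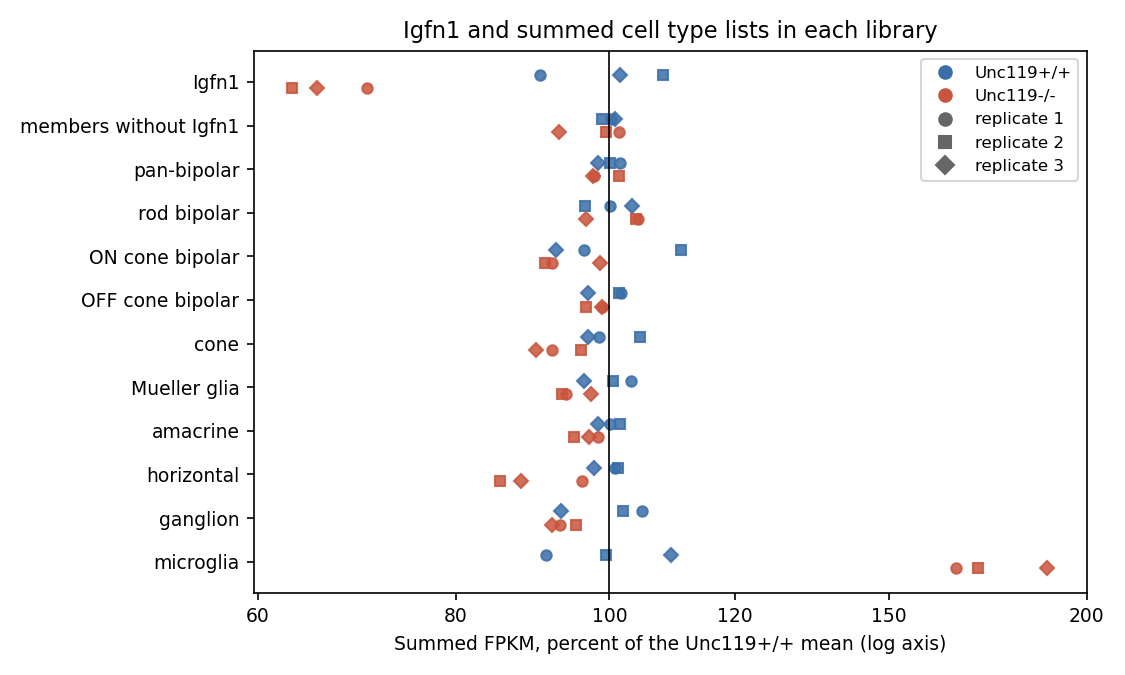
Igfn1 and the summed FPKM of cell type lists in each library as a percent of the wild-type mean (log axis), with wild type in blue, knockout in red and the symbol showing the replicate. The members without Igfn1 sum to between 224 and 244 FPKM over all 6 libraries and overlap between genotypes, as do the 4 other bipolar lists, while those of Igfn1 and of the microglia, cone, amacrine and horizontal lists do not; the lens list, which spans a far wider range, is left out.

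Relatives of the members were listed too, 32 genes of the same families or binding partners, of which 31 were tested. By limma 0 of the 31 were called (0.233% of all genes), and 4 had an unadjusted p under 0.05 (9.0% of all genes). Genotypes did not overlap for 9 (15.9% of all genes), 3 higher and 6 lower. The median log2 change of the 31 was 0.00. The most abundant relatives were Rgs9, the photoreceptor RGS protein, at 308 ± 34.0 and 315 ± 12.9 FPKM, and Car2, given above. Cabp4, the photoreceptor synapse relative of Cabp5, measured 159 ± 1.90 FPKM in wild-type retina and 148 ± 7.41 FPKM in knockout retina (log2 change −0.10, adjusted p = 0.583 by limma), and Calb2 (calretinin, an EF-hand protein like secretagogin) 209 ± 15.3 and 195 ± 6.70 FPKM. Lhx2 measured 12.9 ± 1.48 and 14.4 ± 1.57 FPKM, above Lhx4, and Isl2 2.16 ± 0.272 and 1.78 ± 0.1499 FPKM, below Isl1.

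The 4 with an unadjusted p under 0.05, chosen for that after their values were seen, were Rgs4, Rgs8, Neto2 and Calb1, all lower in the knockout. Rgs4 measured 23.2, 22.4 and 21.6 FPKM in wild-type retina and 17.9, 20.4 and 18.1 FPKM in knockout retina (log2 change −0.24, limma adjusted p = 0.389). Rgs8, whose end lies 40025 bases before the start of Rgs16, measured 44.9, 45.1 and 42.7 FPKM and 41.1, 41.1 and 39.0 FPKM (log2 change −0.13, limma adjusted p = 0.511). Neto2, an auxiliary subunit of kainate receptors, measured 9.51 ± 0.395 and 8.10 ± 0.536 FPKM (adjusted p = 0.499 by limma), and Calb1, which encodes calbindin of horizontal and amacrine cells, 23.3, 24.1 and 21.7 FPKM against 22.5, 19.4 and 18.2 FPKM (adjusted p = 0.549 by limma).

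Likeness to the members was measured as the root mean square difference, over the 6 libraries, between a gene's centred log2(FPKM + 1) profile and the mean centred profile of the 9, among 135 tested genes of the fixed lists. The nearest were Tfap2b and Cabp4 (both 0.0307 log2 units) and Pcdh17 (0.0314). The member profile itself was shallow, lowest at −0.08 (knockout replicate 3) and highest at 0.06 (wild-type replicates 2 and 3). As a mean it includes Igfn1, whose log2 change of −0.51 was the largest in size of the 9. Medians over the members, relative to the wild-type mean, were −0.04, 0.04 and 0.02 in wild type. In the knockout they were 0.01, 0.01 and −0.06, so the mean profile does not describe the members in common.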

How the data were processed

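Whole-retina mRNA was sequenced in 3 wild-type and 3 knockout libraries made with a stranded kit, per the labels' protocols. The submitters' processing notes name TopHat2 2.1.1, Cuffdiff 2.2.1 and mm10; annotation, strand setting and scaling between libraries are not given in sources used here. The authors deposited 1 table of FPKM per library, not counts, so no count model was used and depth limits low genes to an unknown degree. The tables were joined on gene symbol (Python 3.11.15, pandas 2.3.3) and genotypes compared on log2(FPKM + 1) with limma (version 3.58.1, R 4.3.3), using a variance trend, genes with a mean of at least 0.5 FPKM and a two-sided adjusted p threshold of 0.05; the fit was tested on simulated data. Exact permutation tests used scipy 1.17.1. Members and lists were chosen with earlier results of these data known. Genes named are the 9 members, genes past the threshold or else the 2 most abundant of each bipolar, mGluR6 and relatives list, the most abundant relative of each family and Unc119; others, such as Sebox, Htr3a, Fezf2, Chat, Itpr1 and the neighbours of Igfn1, were chosen after their values were seen, and 2 genes of these lists are not reported here by name. Alternatives changed the pseudocount, filter, scaling, libraries, weights, and terms for sex, lens level and replicate number.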

Additional observations from a re-analysis of the deposited data

How the results depend on the processing

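None of the 9 members and none of the 27 other bipolar genes was called by limma under any of the 15 alternatives. Few genes were called at all, 0.233% of those tested in the report's fit, so these counts of 0 lie near the share over all genes. Igfn1 kept its direction in all 15, with log2 changes from −0.58 (pseudocount 0.1) to −0.46 and adjusted p from 0.116 to 0.584, as did Isl1, Vsx1, Grik1 and Rgs16. The other 4 members, whose log2 changes in the report's fit lay between −0.04 and 0.04, turned sign in 10 of the 135 member results; the cause was not tested. With the lens term Cabp5 was 0.0303, Car8 0.0039 and Scgn 0.0751. With the sex term Scgn was 0.0052 and with library weights 0.012. With single libraries left out, Cabp5 ran from −0.0798 to 0.0011, Car8 from −0.0752 to 0.022, Lhx4 from −0.11 to 0.12 and Scgn from −0.0849 to 0.063. The number of genes called among all tested, 33 in the report's fit, was 15 with the replicate block, 19 with the sex term, 7 with the lens term and 12 to 27 without single libraries (for wild type, 12 leaving out replicate 1, 18 replicate 2 and 13 replicate 3; for the knockout, 21 leaving out replicate 1 and 14 replicate 2). All these fits leave fewer degrees of freedom for the residuals. The replicate block changed no call of a member: same-numbered libraries deviated from their genotype means with correlations of 0.07, −0.09 and −0.12 across genes for numbers 1, 2 and 3, so the numbers were not taken to pair the libraries. Not every library correlated best with its own number. The call of Unc119 held under every alternative. The members' median log2 change stayed between −0.08 and 0.0039, the latter with the lens term. Depth in fragments is unknown, which limits most the genes of a few FPKM, such as Htr3a.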
